A study of Caenorhabditis elegans with 2 samples.

Results

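The intronic UNC-86 peaks far from transcript starts are 770 regions where chromatin from late Caenorhabditis elegans embryos was recovered with UNC-86-GFP inside the introns of protein-coding genes. They were selected on the peak list that the authors made from both replicates together, called the pooled list here, in its ce11 version. A peak was taken when its signal value in that list was at least 35, when its summit lay inside a protein-coding gene and in no exon of a protein-coding transcript, and when the summit was over 1 kb from every protein-coding transcript start and over 300 bp from the midpoint of every tRNA, snoRNA, snRNA and miRNA gene. Of the 12784 pooled peaks, 4457 reached a signal of 35, and 770 of these met the rules on location. The other peaks of that strength were 2335 promoter peaks (within 1 kb of a start), 806 distal intergenic peaks, 383 peaks at small RNA genes and 163 peaks in exons far from starts. A further 2116 pooled peaks met the rules on location at a lower signal. Signal and location chose the set, so both are given as descriptions without a test.

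UNC-86 is a POU homeodomain protein of class IV, the Brn-3 family, and acts as a terminal selector of neuron identity, best known from the touch receptor neurons. Factors of this kind bind DNA at promoters and at enhancers, and in the compact worm genome a part of the enhancers lies in introns. An intronic peak may belong to the gene that surrounds it, to a neighbouring gene or to neither, and a peak position alone does not tell them apart.

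The study is a ChIP-seq experiment, in which DNA bound by a protein is precipitated with an antibody and sequenced. The samples were 2 biological replicates of a single group: whole hermaphrodites of strain OP476, genotype unc-119(tm4063) III; wgIs476, collected as late embryos 3.5 hours after synchronization by bleaching of eggs. Both carried the transgene wgIs476, which encodes UNC-86 with a GFP-FLAG tag at its C-terminus, and the sonicated chromatin was precipitated with an anti-GFP antibody against a control alignment. The protein measured was thus the tagged transgene product, the chromatin came from all tissues of the embryo with neurons as a part of them, and no group without the transgene or of another age was compared.

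The deposited lists hold no read counts, so the depth of the libraries is unknown. The replicate 1 list held 17498 peaks and background regions, the replicate 2 list 18470, and the list of peaks past the authors' threshold on the irreproducible discovery rate, called the IDR list here, 816. The lists were made to include background regions: the median −log10 q value, as the authors' caller gave it, was 0.0757 in the pooled list and 3.08 in the IDR list. For the intronic peaks it was 0.292, with a range of 0.137 to 3.08, and 59 of the 770 (7.66%) had a q value of at most 0.05, against 664 of the 2335 promoter peaks (28.4%) and 124 of the 806 distal intergenic peaks (15.4%). Most intronic peaks of the set were therefore weak entries, and those that did pass the IDR threshold, 30 in number, are given separately throughout.

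The sequences at the strongest summits come first, since they show what kind of DNA the signal centred on. Each is the RefSeq ce11 (WBcel235) plus strand, 100 bp to each side of the summit, and capitals mark matches to any of 8 short patterns that are spelled out with the pattern counts. The 6 strongest members lay in introns of mom-1, the worm Porcupine needed for Wnt secretion, Y41G9A.17, hmt-1, an ABC transporter for heavy-metal tolerance, pqn-41, which encodes a glutamine- and asparagine-rich protein, srt-52, of a chemoreceptor family, and Y57G11C.22.
mom-1 chrX:6296495-6296695: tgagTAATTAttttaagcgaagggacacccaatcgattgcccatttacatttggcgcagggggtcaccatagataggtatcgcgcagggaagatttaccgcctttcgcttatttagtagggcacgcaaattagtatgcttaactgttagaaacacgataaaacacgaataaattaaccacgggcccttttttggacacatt
Y41G9A.17 chrX:2997004-2997204: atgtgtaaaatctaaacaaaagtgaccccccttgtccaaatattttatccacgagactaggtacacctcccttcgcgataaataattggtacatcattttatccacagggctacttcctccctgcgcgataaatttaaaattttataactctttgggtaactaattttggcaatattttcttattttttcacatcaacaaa
hmt-1 chrIII:11091792-11091992: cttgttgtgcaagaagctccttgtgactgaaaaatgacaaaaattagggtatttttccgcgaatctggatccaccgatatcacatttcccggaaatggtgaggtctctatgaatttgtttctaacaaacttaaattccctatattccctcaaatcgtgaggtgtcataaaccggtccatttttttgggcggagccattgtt
pqn-41 chrIII:1921270-1921470: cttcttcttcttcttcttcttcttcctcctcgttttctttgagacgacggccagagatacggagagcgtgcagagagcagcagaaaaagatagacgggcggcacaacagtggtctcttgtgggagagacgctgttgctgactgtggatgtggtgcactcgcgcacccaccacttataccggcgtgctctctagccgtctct
srt-52 chrV:53418-53618: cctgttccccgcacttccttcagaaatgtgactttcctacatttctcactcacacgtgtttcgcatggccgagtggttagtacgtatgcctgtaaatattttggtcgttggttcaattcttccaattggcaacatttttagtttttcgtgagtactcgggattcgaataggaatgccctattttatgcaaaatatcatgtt
Y57G11C.22 chrIV:14838269-14838469: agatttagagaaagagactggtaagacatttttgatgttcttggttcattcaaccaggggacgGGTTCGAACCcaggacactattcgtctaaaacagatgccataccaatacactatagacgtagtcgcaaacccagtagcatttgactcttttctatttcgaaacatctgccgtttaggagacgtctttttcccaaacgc

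Among these 6 windows, capitals occur in 2. The mom-1 window holds the homeodomain core TAATTA once, 4 bases from its left end, and the Y57G11C.22 window holds the B box of RNA polymerase III promoters, whose letters here match on both strands. The windows of Y41G9A.17, hmt-1, pqn-41 and srt-52 hold none of the 8 patterns. The pqn-41 window opens with a run of cytosine and thymine repeats and has a GC content of 54.2%, against 34.3% in the Y41G9A.17 window.

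The windows with a POU class IV core are shown next, because this is the pattern known for UNC-86 and its mammalian relatives. The core was searched as CATNATTA on both strands, with N for any base. The 6 strongest members that hold it lay in introns of sea-2, Y41D4A.1, igcm-4, an immunoglobulin-domain adhesion gene, ncx-1, a sodium/calcium exchanger, Y38F2AR.3 and saeg-1. Each line gives 61 bases of the plus strand around the match, with the match in capitals.
sea-2 chrII:3959902-3959962: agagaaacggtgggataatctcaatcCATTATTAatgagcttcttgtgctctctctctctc
Y41D4A.1 chrIV:1774339-1774399: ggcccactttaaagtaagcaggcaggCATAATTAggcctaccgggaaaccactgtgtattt
igcm-4 chrX:2045029-2045089: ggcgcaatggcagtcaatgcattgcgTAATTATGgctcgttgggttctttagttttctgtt
ncx-1 chrV:20109679-20109739: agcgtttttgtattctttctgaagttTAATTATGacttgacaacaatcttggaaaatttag
Y38F2AR.3 chrIV:2387053-2387113: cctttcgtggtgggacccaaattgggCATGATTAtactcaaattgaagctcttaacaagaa
saeg-1 chrV:10857721-10857781: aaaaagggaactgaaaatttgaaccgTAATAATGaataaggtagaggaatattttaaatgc

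The sea-2 peak was the only one of these 6 in the IDR list, with a pooled signal of 79.5, and the other 5 had signals of 43.7 to 47.0. The sea-2 summit was 23 bp from a replicate 1 summit of signal 58.0 (rank 274) and 103 bp from a replicate 2 summit of signal 20.2 (rank 5282). The sea-2 match is followed within the window by a run of cytosine and thymine repeats.

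A last sequence carries a stretch that closely matches tRNA genes, although the annotation has none there. It lies at the summit in unc-104, which encodes the kinesin-3 motor that carries synaptic vesicle precursors, and it was chosen after the values were seen. Capitals mark the 68 bases that align to the tRNA gene B0491.t1 with 98.5% identity.
unc-104 chrII:7001510-7001710: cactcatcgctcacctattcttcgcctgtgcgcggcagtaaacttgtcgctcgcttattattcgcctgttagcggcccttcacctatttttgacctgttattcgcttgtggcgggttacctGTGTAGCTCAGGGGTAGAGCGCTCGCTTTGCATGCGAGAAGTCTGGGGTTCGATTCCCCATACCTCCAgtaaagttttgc

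The aligned stretch, chrII:7001631-7001698, matched 37 annotated tRNA genes in all, and the midpoint of the nearest annotated small RNA gene was 1418 bp away. Other annotated genes, pseudogenes among them, were looked for at the summit base only, which lies outside the stretch. Of the 30-base words in the unc-104 window, 68.6% occur elsewhere in the genome. The unc-104 peak had a pooled signal of 113 and was the next in strength after the first 6, with a summit 2 bp from one of signal 60.8 in replicate 1 (rank 246) and 46 bp from one of signal 52.2 in replicate 2 (rank 299).

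The pooled signal of the 770 intronic peaks reached 189.9, with a median of 40.04, against a median of 43.9 for promoter peaks and 41.5 for distal intergenic peaks. The values just inside the threshold were 35.016, 35.021 and 35.024, and those of the nearest intronic peaks outside it 34.999, 34.968 and 34.965. The set therefore ends within a continuous range of signal. By signal, 381 members lay between 35 and 40, 274 between 40 and 50, 85 between 50 and the lowest IDR peak at 64.7, and 30 in the IDR list. Every member was 440 bp wide, as the authors' caller set it.

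The replicates were compared through the distance from each pooled summit to the nearest summit in each replicate's full list, and a distance of at most 100 bp was counted as a match. Replicate 1 had a match for 553 members (71.8%) and replicate 2 for 626 (81.3%). Both replicates had one for 428 of the 770 members, which is 55.6% (95% Wilson interval 52.1 to 59.1), against 64.1% (62.1 to 66.0) of promoter peaks and 58.8% (55.4 to 62.2) of distal intergenic peaks. Neither replicate had one for 19 members. The pooled list was made from both replicates, so these shares describe the lists and are not a test. Per the labels the replicates are biological, and with 2 of them the spread of a single peak is poorly known.

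The share matched in both replicates went with the signal in all peak classes. Among members it was 43.0% at a signal of 35 to 40, 63.1% at 40 to 50, 78.8% from 50 to the IDR list and 80% in the IDR list. At promoter peaks the corresponding shares were 44.6, 59.0, 74.0 and 94.4%, and at distal intergenic peaks 43.5, 62.8, 75.9 and 89.2%. Below the IDR list, intronic peaks were thus matched about as often as other peaks of the same strength. In the IDR list, 24 of 30 members were matched (62.7 to 90.5%), and the interval lies below that of the promoter peaks (92.0 to 96.1%). The other members of the IDR list missed the cutoff of 100 bp narrowly and in a single replicate, where the nearest summit was 103 to 126 bp away. Their share thus depends on that cutoff and does not mean that a replicate had no peak nearby.

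A stricter count asked for a match among the 4457 strongest entries of each replicate. It was met by 99 members (12.9%), against 31.9% of promoter peaks and 19.2% of distal intergenic peaks. Within members the share was 0.525% at 35 to 40, 10.2% at 40 to 50, 54.1% from 50 to the IDR list and 76.7% in the IDR list. Exact entries of the IDR list made up 3.90% of members (30 of 770, interval 2.74 to 5.51), 21.3% of promoter peaks (497) and 9.18% of distal intergenic peaks (74). Strong and reproducible peaks thus took a smaller share of the intronic set than of either other class.

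**Figure D1:**
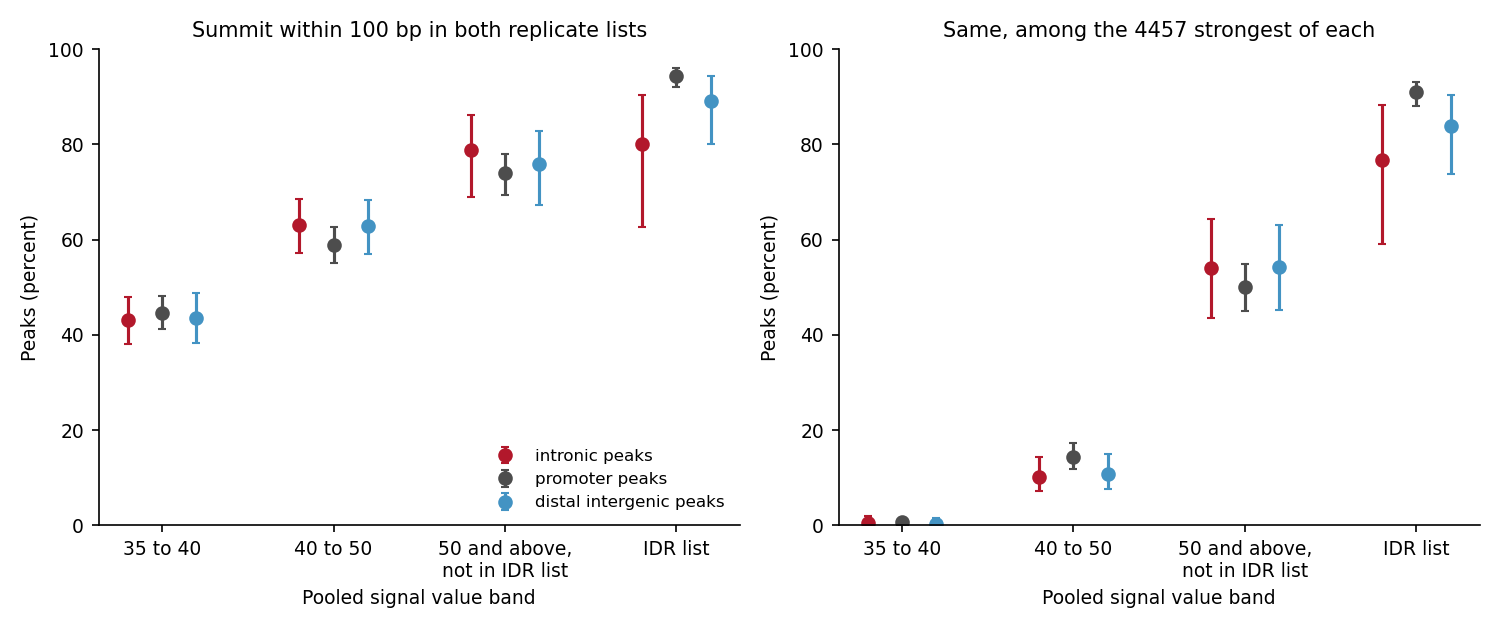
Agreement between the replicates for intronic peaks, with promoter and distal intergenic peaks for comparison. Points are the share of peaks (percent) with a summit within 100 bp in both replicate lists (left) and among the 4457 strongest entries of both (right) by band of pooled signal, with 95% Wilson intervals, and in intronic peaks the left share is 43.0% in the weakest band and 80% in the IDR list.

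Over the 428 members matched in both lists, the signals in replicates 1 and 2 gave a rank correlation (Spearman's rho) of 0.0066 and a linear one (Pearson's r, log2 signal) of 0.32. Both replicates enter the pooled signal that chose the members, and that choice shapes the relation, so the values are descriptions. The matched signals ran from 12.9 to 117 with a median of 20.7 in replicate 1 (553 members), and from 13.7 to 72.7 with a median of 22.6 in replicate 2 (626 members). Ranked by signal, the matched members were hence hardly in the same order in the 2 replicates.

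The strongest members were high in both replicates. The mom-1 summit (chrX:6296595, intron 7 of 7) had a pooled signal of 189.9, with 117 in replicate 1 (rank 43) and 72.7 in replicate 2 (rank 156), and the nearest start, 3347 bp away, belongs to the neighbouring gene cest-16. The Y41G9A.17 summit (chrX:2997104) had 173 in the pooled list, with 103 in replicate 1 (rank 66) and 71.8 in replicate 2 (rank 162). The hmt-1 summit (chrIII:11091892, intron 11 of 11) had 131, with 70.5 in replicate 1 (rank 179) and 62.0 in replicate 2 (rank 214). All 3 were thus among the 214 strongest entries of each replicate.

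The next members in order of signal differed in how even the replicates were. The first pqn-41 summit (chrIII:1921370) had a pooled signal of 128, with 72.7 in replicate 1 and 56.6 in replicate 2. The srt-52 summit (chrV:53518) had 118, with 59.8 in replicate 1 and 61.2 in replicate 2. The Y57G11C.22 summit (chrIV:14838369) had 117, with 67.7 in replicate 1 and 42.1 in replicate 2. At ugt-50, which encodes a UDP-glucuronosyltransferase, the pooled signal of 107 stood beside 23.6 in replicate 1 (rank 2533) and 69.0 in replicate 2 (rank 175). At W05H12.1 the pooled 104 stood beside 57.8 in replicate 1 (rank 282) and 17.5 in replicate 2 (rank 8911). At these 2 members the replicate ranks were far apart, with replicate 2 the stronger at ugt-50 and replicate 1 at W05H12.1.

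Of the 770 summits, 767 lay in an intron of at least 1 annotated transcript, and 3, in F53H2.3 and cdc-25.2, lay inside a gene between parts that no single transcript joins. The nearest protein-coding start was 1005 to 18399 bp away, with a median of 2373 bp, and was one of the host gene's own for 598 members (77.7%) and one of another gene for 172 (22.3%). For this second group a start of another gene was closer than any of the host. The surrounding intron had a median length of 1427 bp (46 to 20948).

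Placement within introns was set beside the sequence where a summit could have met the rule, 19.6 Mb of intron in 12648 genes, called eligible sequence. Introns over 5 kb held 171 members (22.2%, interval 19.4 to 25.3), against 15.6% of eligible sequence, and introns over 1 kb held 488 (63.4%, 59.9 to 66.7), against 53.6%. First introns held 140 (18.2%, 15.6 to 21.1), against 14.2%, and last introns 135 (17.5%), against 16.7%. Summits within 50 bp of a splice site were few, 42 members (5.45%, 4.06 to 7.29), against 18.7% of eligible sequence. The members thus lay in longer introns and farther from splice sites than the eligible sequence as a whole, a comparison of shares whose intervals cover counting over peaks only.

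The 30 members of the IDR list showed the same placement in a stronger form, by their shares. Of these, 14 (46.7%) lay in introns over 5 kb and 10 (33.3%) in a first intron, and 0 of 30 lay within 50 bp of a splice site, which allows a share of up to 10%. The 30 lay in 25 host genes, with 3 in the same first intron of pqn-41, so these shares count some introns more than once. Introns are numbered by the transcript whose intron at the summit is shortest, so a first intron need not be near the 5′ end of the host. The pqn-41 intron is the first of 9 in its transcript, yet the 3 summits lie 45.9 to 57.7% along the gene from its 5′ end. The median intron was 4438 bp long for IDR members and 1286 bp for members with a signal of 35 to 40.

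**Figure D2:**
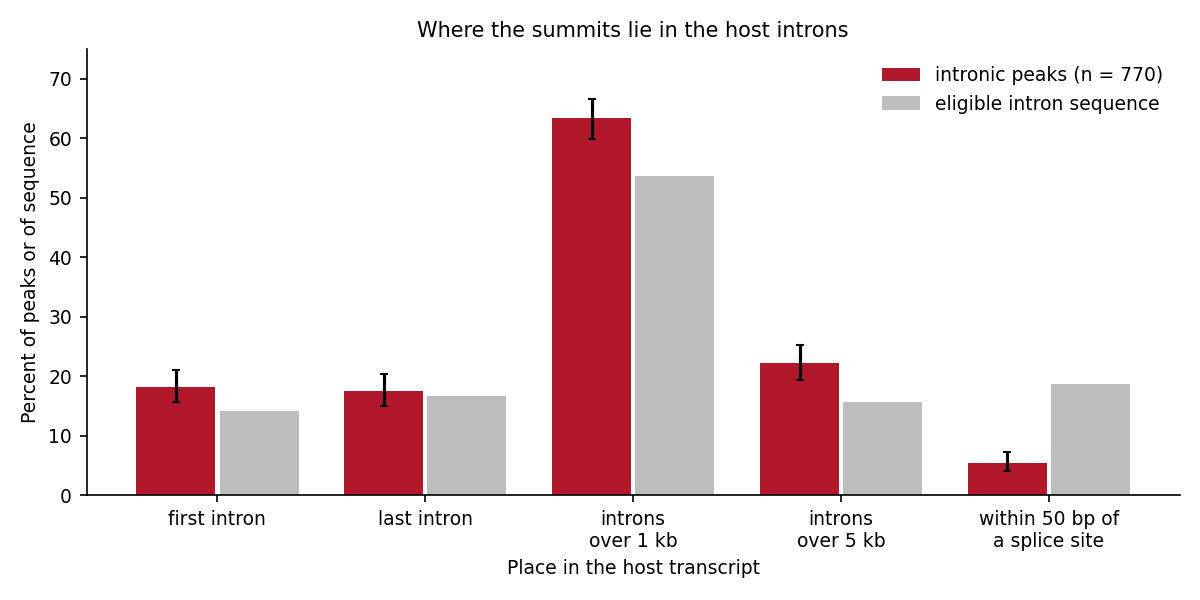
Position of the intronic peaks within introns, as the share (percent) of the 770 members and of eligible sequence in first introns, last introns, introns over 1 kb, introns over 5 kb and within 50 bp of a splice site, with 95% Wilson intervals on the members. Members exceed eligible sequence in introns over 5 kb (22.2% of members and 15.6% of sequence) and fall under it beside splice sites (5.45% of members and 18.7% of sequence).

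Intronic peaks were not spread evenly over the chromosomes. Per Mb of eligible sequence there were 59.6 members on chromosome III (205 peaks), 46.4 on II (123), 41.6 on I (159), 33.4 on IV (111), 29.5 on V (92) and 24.5 on X (80), against 39.2 over all. The weaker intronic peaks were also densest on III (138 per Mb) and least dense on X (69.1 per Mb). The weak entries thus shared both ends of the order, while the strongest 2 members lay on X.

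The DNA under the summits had a median GC content of 36.3% (quartiles 31.3 to 42.3) over 201 bp, against 36.6% in the flanks 500 bp away and 32.1% in eligible sequence as a whole. The GC content went with the signal: the median was 34.3% for members at 35 to 40, 36.8% at 40 to 50, 41.8% from 50 to the IDR list and 49.0% in the IDR list. The flanks stayed at 35.8, 37.6, 37.1 and 36.8% across the same bands. The higher GC content of the strongest members was therefore local to the summit window. A GC content of at least 50% was found in 62 members (8.05%), in 7 of 381 in the weakest band and in 14 of 30 (46.7%) in the IDR list.

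The same direction was seen in the other classes. Promoter peaks had band medians of 35.8, 37.3, 39.8 and 41.8%, and distal intergenic peaks of 36.8, 39.3, 45.0 and 47.8%. Spearman's rho of signal with GC content was 0.275 over the 770 members, 0.286 over the promoter peaks and 0.333 over the distal intergenic peaks. The peaks share their libraries and the members share their choice by signal, so the values are descriptions, and the part of base composition in the signal itself was not tested.

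Over the whole set, repeats made up more of the intronic windows than of the promoter and distal intergenic windows. The median share of bases masked as repeats in the RefSeq genome was 49.0% for members, against 36.3% for promoter peaks, 31.3% for distal intergenic peaks and 52.9% for eligible sequence as a whole. By band, from the weakest to the IDR list, it was 54.7, 50.2, 33.8 and 21.1% in members, 39.3, 37.3, 35.3 and 32.3% in promoter peaks and 35.8, 31.8, 22.4 and 18.7% in distal intergenic peaks. Members thus had more masked sequence than promoter peaks below a signal of 50 and less from 50 on. At least one 30-base word that occurs elsewhere in the genome was found in 214 members (27.8%), against 276 promoter peaks (11.8%) and 126 distal intergenic peaks (15.6%). The intronic set thus held more sequence with copies elsewhere, where reads can be placed at more than one position, and the labels and headers do not say how the authors treated such reads.

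**Figure D3:**
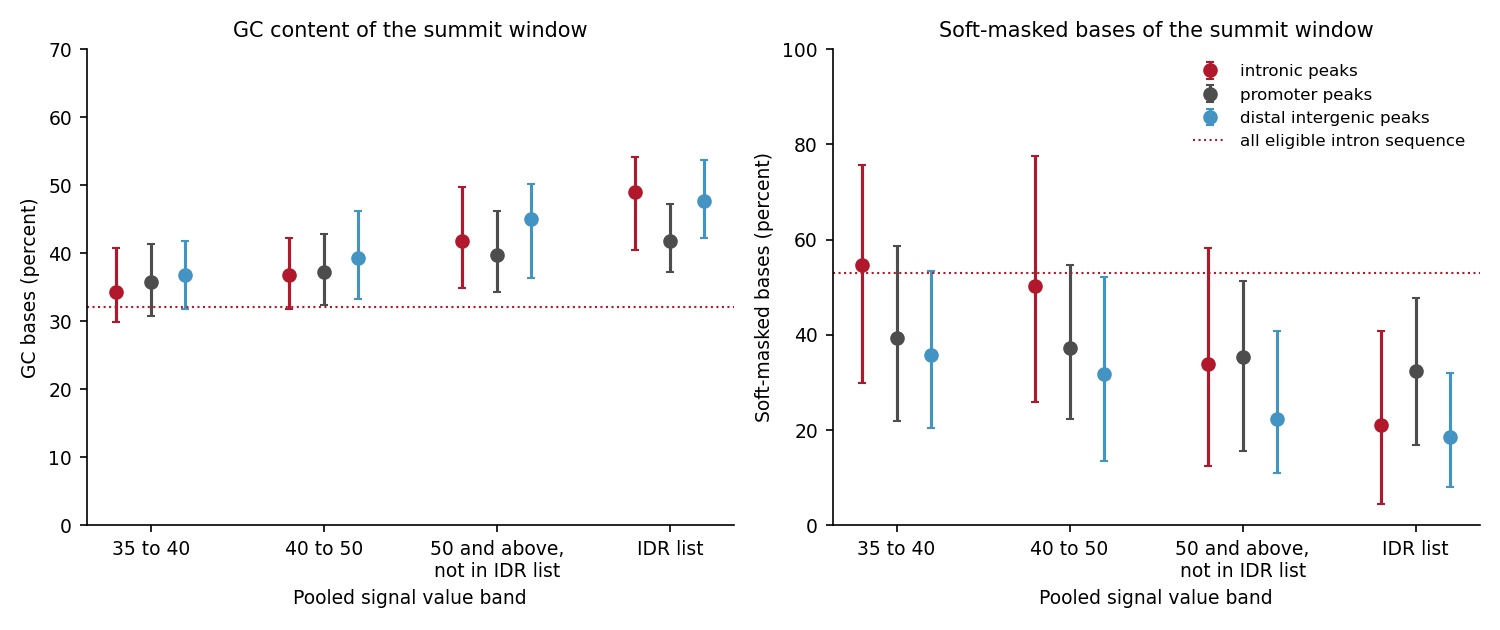
Base composition of the intronic peaks, as median GC content (left) and median repeat-masked share (right), in percent of 201 bp, by band of pooled signal, beside promoter peaks and distal intergenic peaks, with bars for the quartiles and a dotted line for eligible sequence. In members the median GC content is 34.3% in the weakest band and 49.0% in the IDR list, and the masked share 54.7% in the weakest band and 21.1% in the IDR list.

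The 770 peaks lay in 595 host genes, which is 4.7% of the 12648 protein-coding genes with eligible sequence. A single peak was found in 467 hosts and 2 peaks in 98. The 30 hosts with 3 or more, 0.237% of the candidates, held 117 members when each member was given to 1 host only. The strongest entries of each replicate alone, as many as the pooled list has at 35 or more, also fell in 322 of the 595 hosts (54.1%) for replicate 1 and in 375 (63.0%) for replicate 2, and 192 (32.3%) were hosts in both. Most hosts were thus not found by both replicates separately. The hosts were long genes, with a median eligible sequence of 5.07 kb, against 0.554 kb for the other candidates.

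A promoter peak of signal 35 or more within 1 kb of any of the gene's own transcript starts was found for 188 of the 595 hosts (31.6%, 28.0 to 35.4). Among the 12053 other candidates it was found for 1608 (13.3%, 12.7 to 13.96). Starts inside the gene count here, and such a peak can also be near a start of another gene. When the candidates were split into 3 equal groups by their eligible sequence, the shares in the longest group were 171 of 529 hosts (32.3%, 28.5 to 36.4) and 649 of 3686 others (17.6%, 16.4 to 18.9). Within that group the hosts were still longer, with a median eligible sequence of 5.59 kb, against 2.33 kb for the others. Intronic peaks and promoter peaks therefore occurred in the same genes more often than in candidates at large, without length being fully matched. The number of starts per gene, which gives a gene more places for a promoter peak, was not matched either.

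Some hosts carried clusters of peaks. pqn-41 (chrIII:1905958-1939570, plus strand) held 10, with pooled signals in order along the gene of 44.6, 127.7, 105.9, 49.4, 108.4, 35.1, 40.9, 60.9, 36.9 and 54.4. Of these, 6 lay in a single intron of 7776 bp, among them the 3 in the IDR list at 1921370, 1923577 and 1925357. The replicate 1 list alone had 6 such peaks in the gene and the replicate 2 list alone 10. The pqn-41 cluster was thus present in each replicate, with its strongest part in one long intron.

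ppfr-1, which encodes a regulatory subunit of protein phosphatase 4, and Y111B2A.12 held 6 peaks each. In ppfr-1 the signals were 101.2, 95.8, 54.6, 49.4, 43.0 and 42.3, with 6 peaks in each replicate alone. In Y111B2A.12 all 6 lay in an intron of 7076 bp with signals of 100.9, 74.0, 44.1, 38.7, 37.8 and 37.7, and each replicate alone had 4. Some of these are neighbours that share reads: over the whole set, 65 members overlapped another member, and joining them left 737 regions. In Y111B2A.12, for instance, the summits at 12612696 and 12612902 both had the replicate 2 summit of signal 41.6 as their nearest.

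2 adhesion and guidance genes followed with weaker peaks. hmr-1, the classical cadherin of the worm, held 6 peaks of signal 36.7 to 55.8 over a gene of 58.9 kb, with 8 in replicate 1 alone and 9 in replicate 2 alone, and a further 17 weaker intronic peaks in the pooled list. vab-1, the Eph receptor, held 6 of signal 37.0 to 47.4, with 2 in replicate 1 alone and 4 in replicate 2 alone. The strongest hmr-1 peak had its nearest replicate 1 summit 1223 bp away and its nearest replicate 2 summit 7 bp away with a signal of 42.4. Unlike the pqn-41 cluster, neither gene had a peak in the IDR list.

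**Figure D4:**
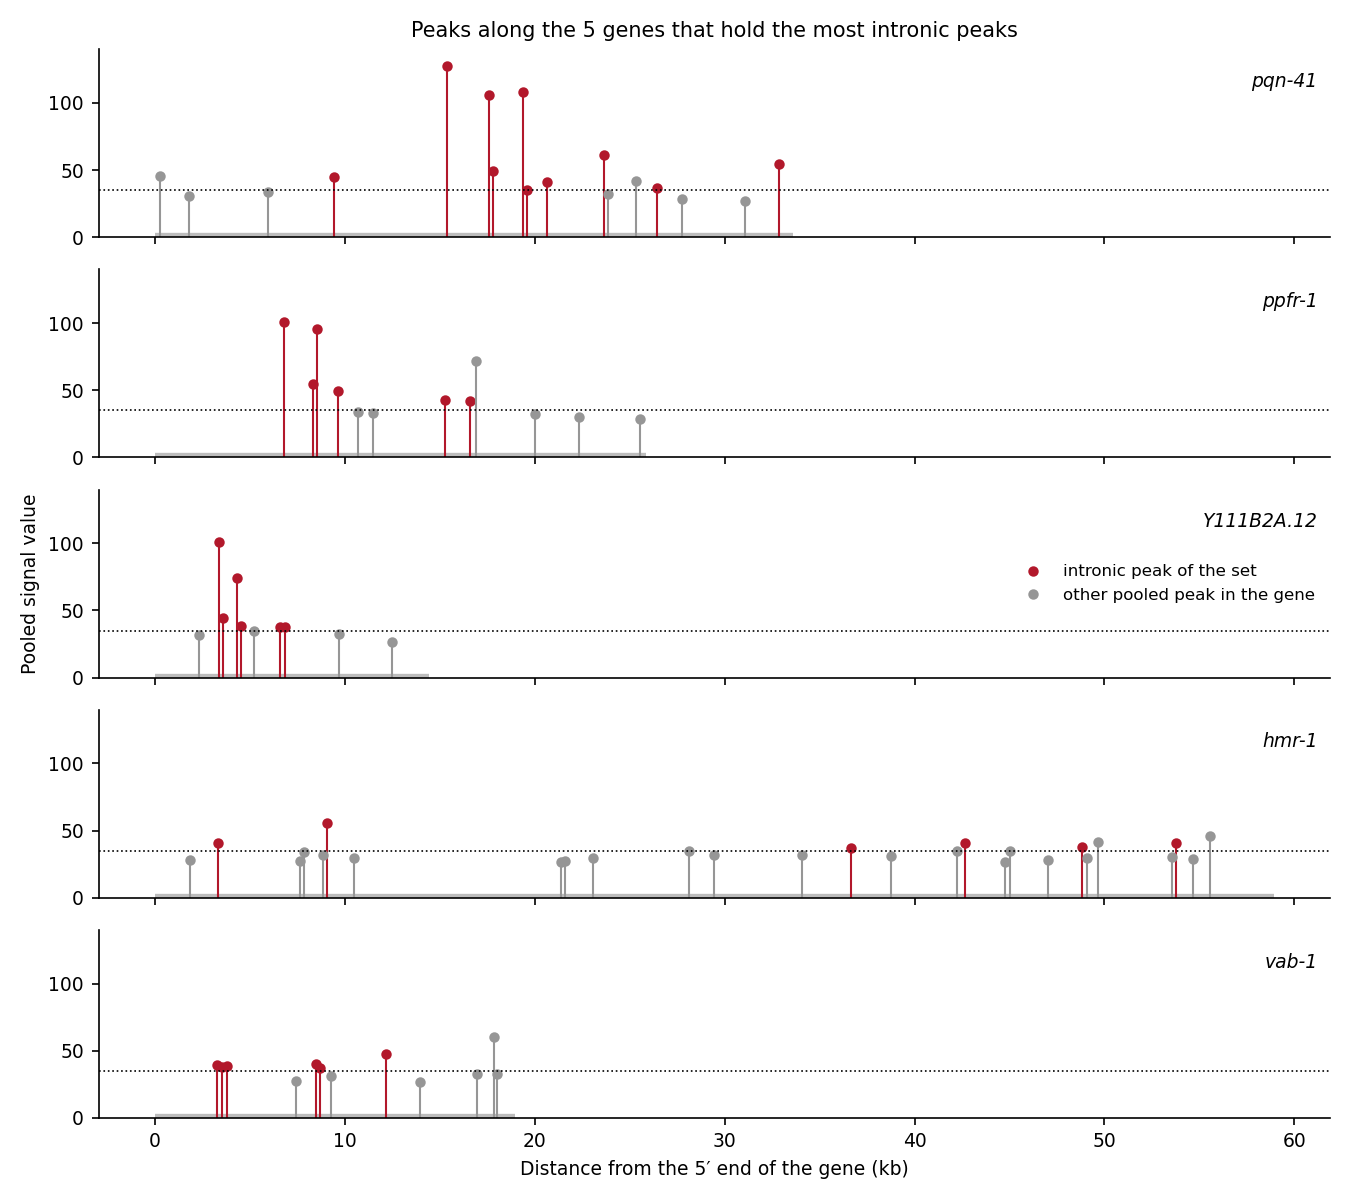
Pooled signal of all pooled peaks along the 5 genes with the most intronic peaks, against distance from the 5′ end of the gene in kb, with the members and the other pooled peaks of the gene in separate colours and the threshold of 35 dotted. The 3 pqn-41 peaks in the IDR list (127.7, 105.9 and 108.4) stand within a few kb of each other, whereas the 6 hmr-1 peaks are spread along the gene with a highest signal of 55.8.

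The other genes with clusters had various roles. ercc-1, which acts in nucleotide excision repair, held 5 peaks in its first intron of 11671 bp with signals of 35.5 to 59.0, and 4 of them were matched in both replicates. For all but the peak closest to the 5′ end of ercc-1, the nearest start belonged to another gene, ncs-2, 1717 to 5687 bp away. ptp-3, a LAR-type receptor phosphatase of axons and synapses, held 4, igcm-4 held 4, gcn-1, a regulator of translation under amino acid starvation, also held 4, and rpoa-1, a subunit of RNA polymerase I, held 4. hmt-1 held 3, of which 2 were in the IDR list, and cct-5, a chaperonin subunit, held 3 in an intron of 6134 bp with signals of 64.4, 58.0 and 45.3. The hosts with 3 also included par-1, a polarity kinase, ldb-1, a cofactor that binds LIM-domain proteins, daf-2, the insulin receptor, kin-1, a protein kinase A subunit, afd-1, the afadin homologue, and efn-4, an ephrin.

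Not all clusters were present in each replicate. rpoa-1 had no such peak in replicate 1 alone and 4 in replicate 2 alone, and 3 of its 4 members had their nearest replicate 1 summit over 2 kb away. daf-2 had none in replicate 1 alone and 5 in replicate 2 alone. igcm-4 had 3 in replicate 1 alone and none in replicate 2 alone, and efn-4 had 1 in replicate 1 alone and none in replicate 2 alone. Among the strongest entries, the clusters of rpoa-1, daf-2 and igcm-4 were thus present in 1 replicate and absent from the other, and that of efn-4 was present in neither.

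Host genes were also described through 11 lists of genes by role, each read beside the 4.7% of candidates that were hosts and the 39.3 gene-peak pairs per Mb of eligible sequence over all candidates. A pair is a member in a gene, and the density takes the length of the introns into account. Intervals are exact Poisson intervals and cover counting over peaks only.

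Axon guidance and cell adhesion genes had the highest density of the 11 lists in the pooled set. Members lay in 25 of its 88 candidates (28.4%), as 49 pairs, or 104 per Mb (76.7 to 137), which is 2.64 times that of all candidates. The pairs were clustered, with 6 in hmr-1 and 6 in vab-1, which the interval does not take into account. With overlapping members counted once, a count added after the data were seen, the ratio was 2.42 on 43 pairs. The ratio was 2.60 in replicate 1 alone and 1.79 in replicate 2 alone, and 1.49 for the weaker intronic peaks. Of the 49, 23 were matched in both replicates and none was in the IDR list. The strongest host was lat-1, a latrophilin-type adhesion receptor, whose peak had a pooled signal of 60.9, with 23.6 in replicate 1 (rank 2511) and 33.6 in replicate 2 (rank 861). unc-14, needed for axon outgrowth, had a signal of 57.1, hmr-1 55.8, zig-8, of the immunoglobulin family, 53.3, ptp-3 52.2 and sdn-1, the syndecan, 48.9. Further hosts at lower signal included the netrin receptor unc-5 (39.5), the Frizzled genes lin-17 (44.0) and mig-1 (37.5) and the L1-type adhesion gene sax-7 (37.0).

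Genes of the synapse had 9 hosts of 51 candidates (17.6%), as 13 pairs or 56.3 per Mb (29.98 to 96.3), 1.43 times all candidates. Apart from the unc-104 peak described above, their signals were under 47. rimb-1, a RIM-binding protein of the presynaptic zone, had peaks of 46.6 and 35.1, and unc-43, the calcium/calmodulin-dependent kinase II, had 43.7 and 42.9. The density was 69.3 per Mb in replicate 1 alone and 43.3 in replicate 2 alone, so the list lay above all candidates (37.5 per Mb) in replicate 1 and level with them (43.7 per Mb) in replicate 2.

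Neuronal transcription factor genes had 10 hosts of 59 (16.9%), or 58.1 pairs per Mb (27.8 to 107). The strongest were zag-1, the ZEB factor, at 53.9, with 25.1 in replicate 1 and 29.7 in replicate 2, crh-1, the CREB factor, at 52.0, and tra-1, the Gli factor of sex determination, at 43.3. Of the 10 peaks, 4 were matched in both replicates. Replicate 1 alone gave 63.9 per Mb (31.9 to 114) and replicate 2 alone 40.6, a value above all candidates in the first list only. The intervals of the pooled set and of replicate 1 both span all candidates.

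Lineage and tissue factors outside neurons had 19 hosts of 101 (18.8%), or 78.4 pairs per Mb (49.7 to 118), 2.00 times all candidates. The list held 2 peaks of the IDR list. One was in lin-42, the Period homologue of the heterochronic pathway, with a pooled signal of 81.5, 49.8 in replicate 1 (rank 383) and 30.9 in replicate 2 (rank 1096), at a GC content of 63.7%. The other was in egl-18, a GATA factor of the seam cells, at 68.5. daf-12, a nuclear receptor of the same pathway as lin-42, had peaks matched in both replicates with a highest signal of 56.1. The density was 64.8 per Mb in replicate 1 alone and 78.4 in replicate 2 alone, both above all candidates, and 1.07 times all candidates for the weaker peaks.

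RNA-binding and splicing genes had 9 hosts of 48 (18.8%), or 97.2 pairs per Mb (48.5 to 174), 2.47 times all candidates. sfa-1, the splicing factor 1 homologue, had a highest signal of 56.9, unc-75, a CELF-type splicing regulator of neurons, 56.5, and larp-1, an RNA-binding protein, 55.5. The ratio was 1.65 in replicate 1 alone and 1.21 in replicate 2 alone, and 0.819 for weaker peaks, on 7 and 6 pairs in the replicates. A promoter peak was found for 6 of the 9 hosts.

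The lists of ion channels and of receptors hold many end products of neuronal differentiation. Ion channel and ionotropic receptor genes had 16 hosts of 258 (6.20%) and 26.1 pairs per Mb (16.1 to 39.9), 0.664 times all candidates, with an interval that spans the 39.3 of all candidates. For the weaker intronic peaks the ratio was 1.00. slo-1, the BK potassium channel, had a highest signal of 54.5, mca-3, a calcium pump, 46.1 and trpa-1, a TRPA channel, 43.6. Of their 21 peaks, 16 were matched in both replicates, and 1 of the 16 hosts had a promoter peak. Neuromodulator and neuropeptide receptor genes had 4 hosts of 133 (3.01%) and 13.3 pairs per Mb (4.31 to 31.0). Among these hosts were ckr-2, a cholecystokinin-like receptor, at 50.6, and lat-1, which is also in the list of axon guidance and cell adhesion genes. The ratios for channels were 0.728 in replicate 1 alone and 0.739 in replicate 2 alone, with intervals (17.1 to 41.4 and 21.1 to 47.3 per Mb) that also span all candidates, and for neuromodulator receptors 0.495 in replicate 1, 0.607 in replicate 2 and 0.590 for the weaker peaks.

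Among the muscle, epithelial and nuclear hormone receptor lists, the interval of muscle genes lay below all candidates in the pooled set, and the other intervals spanned them. Muscle structure genes had 2 hosts of 54, lev-11, a tropomyosin, at 43.0 and pat-12 at 38.8, or 9.57 pairs per Mb (1.16 to 34.6), and neither peak was matched in both replicates. Their density was 14.4 per Mb in replicate 1 alone (2.96 to 42.0) and 19.1 in replicate 2 alone (5.22 to 49.0). Both intervals span all candidates, at 37.5 per Mb in replicate 1 and 43.7 in replicate 2. Basement membrane, cuticle and epithelial genes had 11 of 150, or 48.5 per Mb (28.7 to 76.7). The strongest was hmr-1, whose 6 peaks also count in the axon guidance list, then crb-1, a Crumbs homologue, at 51.9 and col-71, a collagen, at 50.2. That list had 70.1 per Mb in replicate 1 alone (45.8 to 103) and 67.4 in replicate 2 alone (43.6 to 99.5), above all candidates in both. The replicate 2 interval just spans all candidates, and 5 of the 18 pooled peaks of the list were matched in both replicates. Nuclear hormone receptor genes had 10 of 238, or 41.4 per Mb (21.4 to 72.4), with nhr-3 at 56.7, daf-12 at 56.1 and nhr-1 at 47.2. Ribosomal protein genes could not be read, since 1 of them had eligible sequence, and it held no peak.

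**Figure D5:**
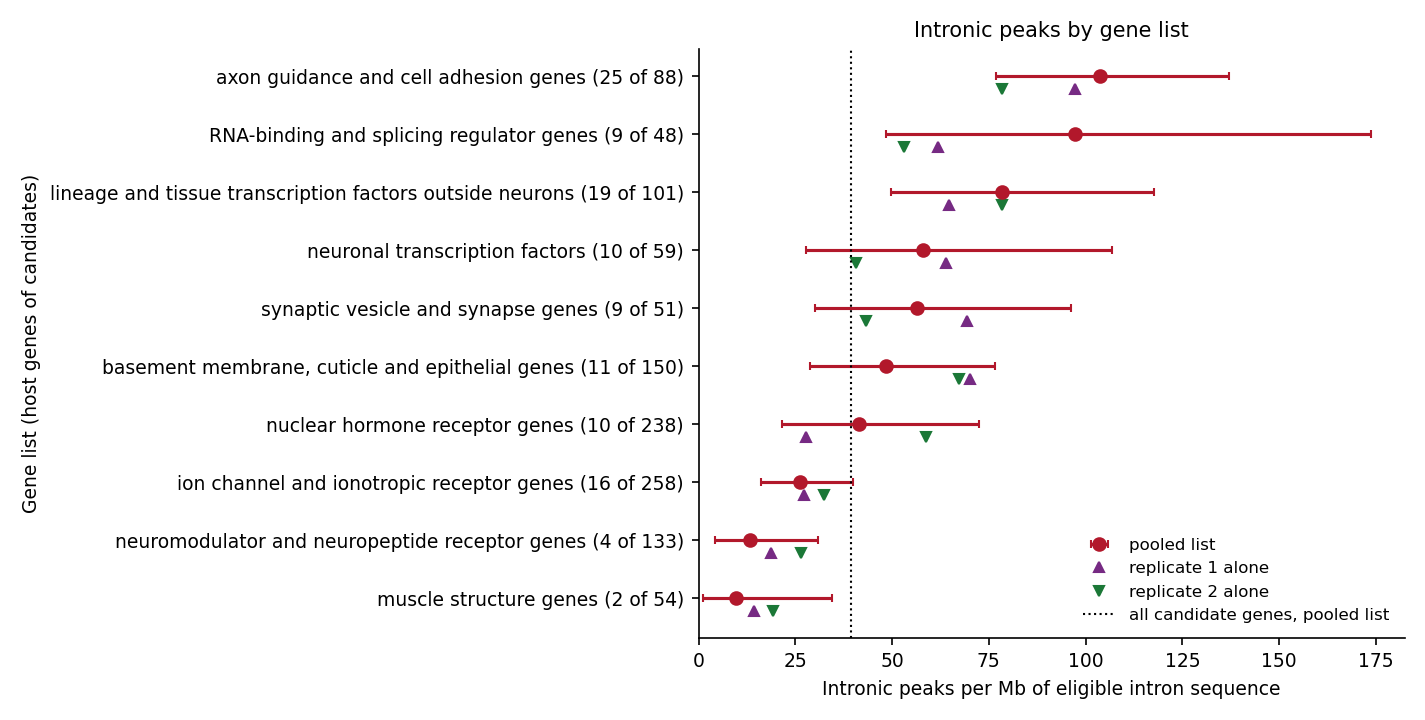
Density of intronic peaks in the gene lists, as gene-peak pairs per Mb of eligible sequence, with points and 95% Poisson intervals for the pooled members, triangles for the strongest entries of each replicate alone and a dotted line for all candidates in the pooled list. Axon guidance and cell adhesion genes have 104 pairs per Mb in the pooled set and 97.4 and 78.3 in replicates 1 and 2, against 39.3, 37.5 and 43.7 for all candidates.

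Sequence was not used by the rule, so 8 patterns were tested, on both strands, as the share of 201-bp summit windows with a match. The comparisons were with 1540 flanking windows of the same width, 500 bp off on each side, with promoter peaks and with distal intergenic peaks, by two-sided Fisher's exact tests adjusted over the 8 patterns (Benjamini-Hochberg). Windows are not replicates, and the tests cover counting over windows only. The tests against flanks treat the windows as unpaired, although each summit has its own flanks. Over all pooled windows the shares were 3.24% for the POU class IV core CATNATTA, 3.15% for AATGCAT, a POU subsite of the mec-3 type, 1.74% for the octamer ATGCAAAT, 9.25% for the homeodomain core TAATTA, 3.54% for the E box CAGCTG, 13.5% for the GATA site TGATAA, 3.26% for the GAGA repeat GAGAGAGA and 3.10% for the B box GTTCGANNC.

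The patterns of POU and homeodomain proteins were as frequent at the summits as beside them, to the precision of these counts. The POU class IV core was in 24 members (3.12%, 2.10 to 4.60), against 38 flanks (2.47%, 1.80 to 3.37; Fisher's exact test, adjusted p = 0.660). It was in 23 members under a signal of 50 and in 1 above, and in 11 of the 428 members matched in both replicates, and 6 of the 24 matches also contain TAATTA. The subsite AATGCAT was in 2.73% of members and 2.14% of flanks (Fisher's exact test, adjusted p = 0.660), the octamer in 1.30% of members and 1.56% of flanks (0.955), and the homeodomain core in 7.53% of members and 7.40% of flanks (1). No match says only that these letters were not in the window.

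The GATA site and the GAGA repeat differed between summits and flanks. TGATAA was in 73 members (9.48%, 7.61 to 11.8), against 237 flanks (15.4%, 13.7 to 17.3), a difference of −5.91 points (Fisher's exact test, adjusted p = 0.000593). This direction was not particular to introns. Under a signal of 50, TGATAA was in 12.7% of promoter peaks and 18.1% of their flanks, and at 50 or more in 9.63 and 17.2%. At distal intergenic peaks and their flanks the shares were 11.2 and 17.4% under 50, and 8.42 and 16.8% at 50 or more. GAGAGAGA was in 32 members (4.16%, 2.96 to 5.81), against 29 flanks (1.88%, 1.31 to 2.69), a difference of 2.27 points (Fisher's exact test, adjusted p = 0.00873). The E box was in 3.25% of members and 5.13% of flanks (Fisher's exact test, adjusted p = 0.114), and the B box in 2.08% of members and 2.01% of flanks (1). TGATAA is rich in A and T and GAGAGAGA less so. Over the whole set, the median GC content was 36.3% at the summits and 36.6% in the flanks. The part of GC content in these differences was not tested.

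GAGAGAGA went with the signal. It was in 20 of 655 members under 50 (3.05%), in 12 of 115 at 50 or more (10.4%) and in 5 of 30 in the IDR list (16.7%), against 1.98% of the flanks of members under 50 and 1.30% of those at 50 or more. At distal intergenic peaks it was more frequent, with 6.66% under 50 and 17.9% at 50 or more, and at promoter peaks it was in 4.16% under 50 and 6.05% at 50 or more. Over the whole sets it was in 4.16% of members and 9.31% of distal intergenic peaks (75 of 806), a difference of −5.15 points (adjusted p = 0.000416, Fisher's exact test). None of the 8 patterns differed between members and promoter peaks at an adjusted p of 0.05 by Fisher's exact test, nor at an unadjusted p of 0.05.

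The rule kept members away from annotated small RNA genes, and unannotated copies were looked for by sequence similarity (blastn, E value at most 0.001), a step chosen after the data were seen. A match to a small RNA gene was found in 69 member windows (8.96%, 7.14 to 11.2), against 122 of 1540 flanks (7.92%), 4.93% of promoter peaks and 5.09% of distal intergenic peaks. Matches to tRNA genes were found in 7 members (0.909%) and 7 flanks (0.455%), and in 3 of the 115 members with a signal of 50 or more. Besides the unc-104 stretch these were in BE0003N10.1, where 2 summits matched tRNA genes with 75.4% identity over 61 bases and 79.7% over 64 bases. Both of these summits lie on pseudogenes that the annotation holds, BE0003N10.t3 and BE0003N10.t4, so they are not unannotated. The srt-52 and Y57G11C.22 windows printed above had no such match.

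unc-86 itself was no host. Its gene (chrIII:8212740-8216336, minus strand) held a strong peak with a summit at 8215196 and a pooled signal of 72.8, in the IDR list, but this summit was 543 bp from a transcript start and was counted as a promoter peak. A second IDR peak, 25 bp from a start, had its summit just outside the gene at 8216361 and a signal of 74.4. Neither peak is therefore in the intronic set.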

How the data were processed

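Peak lists from UNC-86-GFP ChIP-seq of 2 biological replicates were used. The authors deposited, per replicate and for both replicates pooled, lists of peaks and background regions as input for the irreproducible discovery rate, and 1 IDR list. Each peak has a signal value that the authors' caller gave against a control alignment, per the file headers, and a −log10 q value, also as deposited. Which aligner and peak caller were run, the filters on reads, the cutoff of the IDR list and the read depth are not stated in the labels or headers. Signals are therefore compared within a list only. The ce11 lists were used and the ce10 lists were not.

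Summits were placed against the Ensembl 115 annotation (WBcel235), and coordinates are 1-based. Sequence and repeat masking came from the RefSeq genome of the same build. Intron number and length are those of the transcript whose intron at the summit is shortest. A gene counts as host of every member inside it, and 11 members lie in 2 genes. Shares have 95% Wilson intervals. Pattern shares were compared by two-sided Fisher's exact tests with Benjamini-Hochberg adjustment over the 8 patterns. The counting and the test were tested on simulated data. Python 3.11.15, pandas 2.3.3, SciPy 1.17.1 and BLAST 2.17.0 were used.

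The members and the gene lists were chosen with earlier results of these data known. Named genes are hosts of the 15 strongest members, hosts of 3 or more members and up to 3 hosts per list by strongest member, with unc-86, and any others were chosen after their values were seen. Other thresholds, distances, windows and single replicates were tried as alternatives.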

Additional observations from a re-analysis of the deposited data

How the results depend on the processing

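Against 770 members in 595 hosts, a signal of at least 50 left 115 in 96, a signal of at least 30 gave 1612 in 1104, and 2 kb from starts gave 467 in 364, while leaving out a replicate gave 734 to 860 members in 561 to 656 hosts. The share matched in both replicates (55.6%) was 79.1% at a signal of 50 or more, 39.1% at 30 or more, 35.8% within 50 bp and 73.4% within 200 bp. Of the patterns past an adjusted p of 0.05 by Fisher's exact test, 2 against flanks became 1 with windows of 50 bp to each side and 1 with members at 50 or more, and 1 against distal intergenic peaks became 0 in both. With 50 bp to each side, GAGAGAGA differed by 1.17 points from flanks (Fisher's exact test, adjusted p = 0.103) and by −2.01 from distal intergenic peaks (0.170). With members at 50 or more, TGATAA differed by −4.78 from flanks (0.505), and GAGAGAGA reversed against distal intergenic peaks, at 10.4% of members and 9.31% of distal intergenic peaks, a difference of 1.13 points (0.757), since the threshold was then raised for members alone. The cause of the other changes was not tested.

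Alternatives added after the data were seen gave axon guidance and cell adhesion genes 1.79 times the density of all candidates without replicate 1, against 2.64, and RNA-binding genes 1.21, against 2.47. At an E value of 1e-05, small RNA similarity was found in 4.03% of members and 4.22% of flanks. Of the other values, 24 for the comparisons stayed within 1.5 times or within their interval, and 76 pattern differences kept their side of the threshold, 18 of them, the lowest at an adjusted p of 0.0880 by Fisher's exact test, with a change of sign. The 28 other list ratios moved within their intervals, and 3 crossed 1: without replicate 1, neuronal transcription factors at 0.930 (1.48 in the pooled set) and synapse genes at 0.991 (1.43), and without replicate 2, nuclear hormone receptors at 0.737 (1.06). Without a known depth, the smallest difference in signal that these lists can show is not known, and 2 replicates leave the spread of single peaks poorly known. No pairing of samples was possible because both replicates belong to 1 group. The pairing of each summit window with its own flanks was not used by the Fisher's exact tests.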

Other observations

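At 25 member summits the annotation has a non-coding gene besides the host, other than the small RNA types that the rule kept away. In 19 of these it is an ncRNA gene, in 2 an antisense RNA gene, in 2 a pseudogene, in 1 a lincRNA gene and in 1 both an antisense RNA and an ncRNA gene. The strongest are in the IDR list, and they were named after their values were seen. The ppfr-1 peak of signal 101.2 lies over F16A11.7 and anr-20, the T28F4.1 peak of 89.3 over T28F4.7, the lin-42 peak of 81.5 over F47F6.15, and the ckb-2 peak of 77.9, in a choline kinase gene, over srpr-1.2. Of the ckb-2 window, 65.1% of the 30-base words occur elsewhere in the genome. Which of the overlapping genes a peak belongs to cannot be told apart from its position.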
